A study of Mus musculus with 2 samples.

Results

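Subunits of the mitochondrial oxidative phosphorylation machinery were examined in bone-marrow progenitors of group 2 innate lymphoid cells (ILC2 progenitors), lymphocytes without antigen receptors that make type 2 cytokines in tissues. Members were chosen by gene symbol and not by any measured value: the 13 protein genes of the mitochondrial genome (COX1 to COX3, CYTB, ATP6, ATP8, ND1 to ND6 and ND4L) and listed nuclear genes with a subunit symbol, namely Nduf followed by a, b, c, s or v and a digit, Sdha to Sdhd, and any symbol opening with Uqcr, Cox4 to Cox8 or Atp5. The choice gave 98 of the 27179 genes listed, 13 mitochondrially encoded and 85 nuclear-encoded. Of the 85 nuclear genes, 73 encode subunits, 8 are isoforms known mainly from other tissues, and 4 share a symbol root without being a subunit (Cox7a2l, Atp5s, Atp5sl and the pseudogene Atp5c1-ps).

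The study's 2 libraries analysed here formed a single group, ILC2 progenitors sorted by flow cytometry from the bone marrow of C57BL/6 mice aged 8 weeks. Each library was made with an Illumina TruSeq RNA kit from 100 ng of total RNA pooled from 8 mice, so no library stands for 1 animal, and no genetic change or treatment is recorded. The 2 pools are called pool 1 and pool 2, and with 1 group of n = 2 no test between conditions was possible. Errors are SDs over the 2 pools, and differences between pools are given as folds without a p-value.

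Levels were in RPKM, reads scaled by gene length and by library size, which puts genes of different length on a common scale. The library totals recovered from the values were 20216146 reads in pool 1 and 19834586 in pool 2, and detection meant a level of at least 1 RPKM in pool 1 and in pool 2, reached by 40.5% of all listed genes. All 10 ILC2 markers examined (among them Gata3, Rora and Il7r) were detected, with a summed level of 2602 RPKM in pool 1 and 2308 in pool 2. The direction of that sum rested on Id2 (710 and 287 RPKM), since the other 9 markers summed to 1892 and 2021. Markers of other bone-marrow cells were present too and were mostly higher in pool 2: the summed erythroid markers were 923 and 2629 RPKM in pools 1 and 2, the neutrophil and monocyte markers 958 and 2309, and the eosinophil markers 60.3 and 659. T cell markers summed to 401 and 573 RPKM with Cd8a listed at 0, whereas B cell markers reached 1.54 and 9.25. The heading inside each deposited table carried the other library's code, so pool 1 and pool 2 are named by the sample each table was deposited under, and every direction between the pools would turn if the headings were right.

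Oxidative phosphorylation couples the oxidation of nutrients to ATP synthesis in the inner mitochondrial membrane. Complexes I and II pass electrons from NADH and succinate to ubiquinone, complex III passes them to cytochrome c, complex IV reduces oxygen, and complex V uses the proton gradient that complexes I, III and IV build to make ATP. Complex II is built from nuclear genes alone, while the other complexes join subunits of both genomes. Mitochondrial genes are copied as long transcripts from both strands and cut into shorter RNAs, not always a separate RNA for each gene. Each nuclear gene has its own promoter.

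Some mitochondrial genes share bases, which bears on how reads are assigned to them. ATP8 and ATP6 overlap by 43 bases on chrM:7907-7989 (mm10, GENCODE transcripts, plus strand), shown with the overlap in capitals and the flanks in lower case, and ND4L and ND4 overlap by 7 bases on chrM:10147-10193.
ATP8 and ATP6: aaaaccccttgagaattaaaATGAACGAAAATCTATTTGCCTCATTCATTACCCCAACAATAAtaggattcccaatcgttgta
ND4L and ND4: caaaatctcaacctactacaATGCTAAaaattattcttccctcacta

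Several mitochondrial genes also have copies in the nuclear genome. The whole ND4L coding sequence without its stop (chrM:9877-10170) matched the annotated pseudogene Gm10222 on the minus strand of chr1:24612407-24612700 over 294 bases with no differing base, so it is printed once, without capitals.
ND4L: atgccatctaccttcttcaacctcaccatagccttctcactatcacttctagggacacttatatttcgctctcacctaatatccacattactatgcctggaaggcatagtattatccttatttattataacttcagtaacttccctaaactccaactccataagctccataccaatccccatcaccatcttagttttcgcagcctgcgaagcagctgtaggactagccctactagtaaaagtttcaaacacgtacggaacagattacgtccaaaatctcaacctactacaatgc
A search of all annotated transcripts for other loci with at least 98% identity over at least 100 bases found such copies over 100% of the coding sequence of COX2, ATP6, ND3 and ND4L, 99.9% of COX3, 63.6% of ND4 and 31.1% of COX1. They lay in a row of 7 annotated pseudogenes on the minus strand of chromosome 1, none of which had a row in the deposited tables. ATP8 has no annotated copy, but 230 bases separate COX2 from ATP6 on the mitochondrial genome and 233 separate their copies on chromosome 1. ND1, ND2, ND5, ND6 and CYTB had no copy at 98% identity; at 95% identity, copies covered 49.0% of the coding sequence of ND2, 52.4% of ND5 and 100% of COX1.

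Mitochondrially encoded transcripts included the most abundant members in these progenitors, although the lowest of them lay below many nuclear members. All 13 were detected, at mean levels from 112 to 6923 RPKM, while 78 of the 85 nuclear members were detected at 1.21 to 635 RPKM. In all, 54 of the 91 detected members had a mean of 100 RPKM or more, against 7.14% of all detected genes.

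COX1, the catalytic core of cytochrome c oxidase (complex IV), was the highest member, with 7258 and 6588 RPKM in pools 1 and 2. Its partners in the same core were lower: COX2, which takes electrons from cytochrome c, was at 556 and 514 RPKM, and COX3 at 751 and 696. All 3 were slightly higher in pool 1. CYTB, the heme-bearing core of complex III, stood second among all members at 4975 and 5689 RPKM. ATP6, which forms part of the proton path of ATP synthase, was at 908 and 1134 RPKM, and the small subunit ATP8 at 295 and 360, both higher in pool 2.

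The 7 mitochondrial subunits of complex I spanned a wide range within one polycistronic genome. ND1, at the quinone-binding end of the membrane arm, had 3519 and 3685 RPKM in pools 1 and 2. The antiporter-like proton-pumping subunits ND2, ND4 and ND5 were at 2728 and 4365, 1326 and 2121, and 1635 and 2537 RPKM. The small membrane subunits ND3 and ND4L were far lower, at 144 and 131 and at 90.6 and 133 RPKM. ND4L and ND4 share bases, and how reads there were counted is not given in the sources used here. ND6, the only protein gene on the other strand, was at 1615 and 2546 RPKM, close to ND5 in both pools. The ND6 and ND5 annotations overlap, and without knowledge of the strand setting used in counting, reads from ND6 and from RNA opposite to it cannot be told apart.

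The low values fell along the copied stretch of the mitochondrial genome. The 5 genes copied over at least 99% of their coding sequence (COX2, ATP6, COX3, ND3 and ND4L) had means of 112 to 1021 RPKM, and ND1, ND2, ND5, ND6 and CYTB, with no copy at that identity, had means of 2080 to 5332 RPKM. ATP8, which has no annotated copy either but lies between copied genes, had a mean of 328 RPKM, within the range of the copied genes. COX1, copied over 31.1%, and ND4, copied over 63.6%, were at 6923 and 1723 RPKM. How reads with more than 1 possible origin were counted is not given in the sources used here, and the part of these copies in the levels was not tested.

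**Figure D1:**
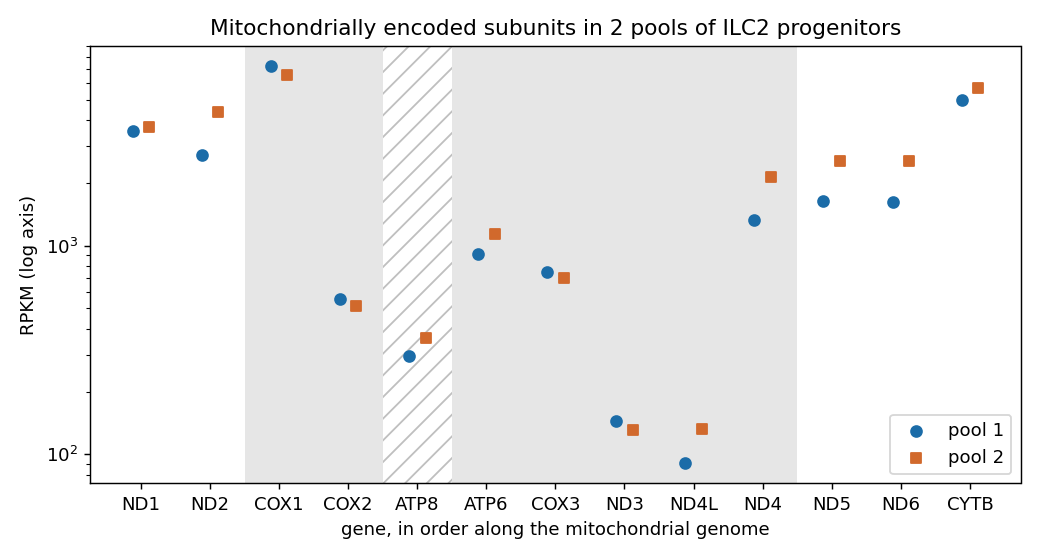
RPKM (log axis) of the 13 mitochondrially encoded genes in genome order, with circles for pool 1 and squares for pool 2; grey marks genes with a near-identical nuclear copy over at least 25% of the coding sequence, and hatching marks ATP8, which has no annotated copy but lies between copied genes. Levels were at 1615 RPKM or more in every gene neither shaded nor hatched, and ND2, ND4, ND5 and ND6 were separated between the pools more than ND1, CYTB or the COX genes.

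The difference between the pools was not even along the mitochondrial genome. Among them, 4 genes of complex I were at least 1.5-fold higher in pool 2 than in pool 1, namely ND2 (chrM:3914-4951) at 1.6-fold (95% counting interval 1.58 to 1.62), ND4 (chrM:10167-11544) at 1.6-fold (1.58 to 1.62), ND6 (chrM:13552-14070) at 1.58-fold (1.55 to 1.61) and ND5 (chrM:11742-13565) at 1.55-fold (1.54 to 1.57). Of all detected genes, 8.45% were at least 1.5-fold apart either way and 5.86% were at least 1.5-fold higher in pool 2; among those with a mean of 10 RPKM or more the shares were 4.8% and 3.31%, and 1.49% were at least 1.5-fold higher in pool 1. ND4L fell just short at 1.47-fold (1.31 to 1.64). The intervals cover counting error only, since reads without molecular identifiers are not independent molecules.

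The other 8 mitochondrial genes differed less. ND1 was 1.05-fold and CYTB 1.14-fold higher in pool 2, ATP8 1.22-fold and ATP6 1.249-fold, while ND3, COX1, COX2 and COX3 were at 0.910, 0.908, 0.924 and 0.928 of their pool 1 level. Thus 9 of the 13 were higher in pool 2 (57.3% of all detected genes were) and 4 in pool 1, and the range within 1 genome ran from -0.14 to 0.68 on the log2 scale. Like those 4, the ribosomal RNAs of the same genome were higher in pool 1, with 377 and 223 RPKM for Rnr2 in pools 1 and 2 and 265 and 236 for Rnr1. The erythroid, neutrophil and eosinophil marker sums given above were higher in pool 2, like the 9 mitochondrial genes. Mast cell and basophil markers (110 and 103 RPKM) and stromal markers (68.2 and 2.82) were higher in pool 1. With only 2 pools, all genes higher in the same pool go together, and the part of other cells in the ND difference was not tested. In bulk RNA, a change in the mix of cells and a change of RNA per cell cannot be told apart.

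None of the 78 detected nuclear members was 1.5-fold apart either way. Of all detected genes 8.45% were, as were 4.8% of those with a mean of 10 RPKM or more. At least that much higher in pool 1 were 2.6% of all detected genes. For the nuclear members the log2 differences (pool 2 minus pool 1) ran from -0.46 for Atp5g1 to 0.30 for Atp5g2. Their median was -0.06 beside 0.04 for all detected genes. The nuclear members were higher in pool 1 in 54 cases and in pool 2 in 24, beside 42.7% of all detected genes that were higher in pool 1. The split was 64 and 14 after centring on the median of all detected genes, 48 and 30 after conversion to TPM, and 45 and 33 with the mitochondrial genes left out of the total. The mitochondrial split of 9 and 4 was the same under each of these scalings.

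**Figure D2:**
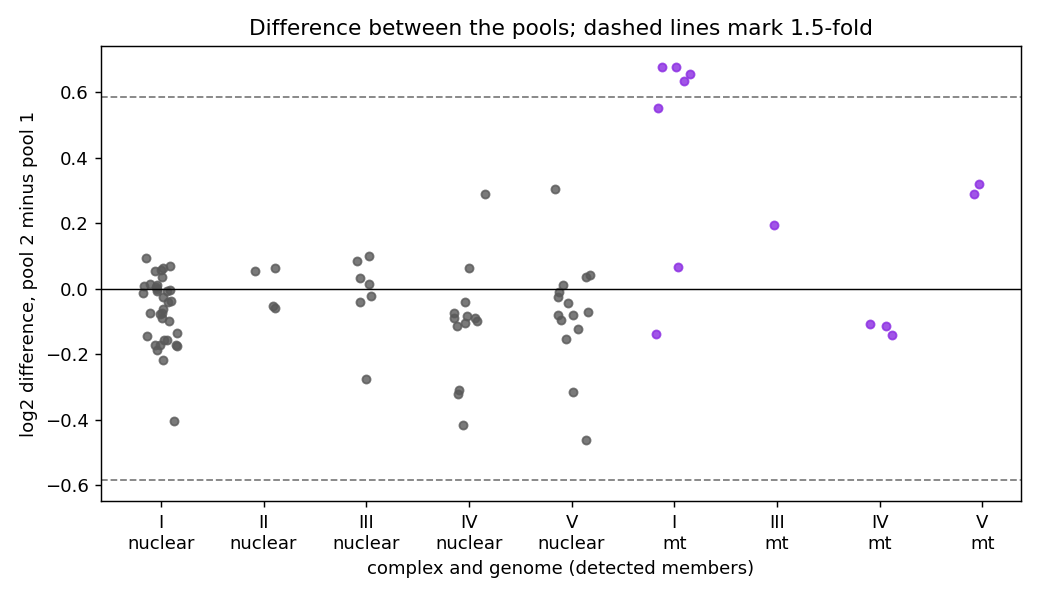
Log2 difference of each detected member (pool 2 minus pool 1, pseudocount 0.1 RPKM), by complex and by genome (grey nuclear, violet mitochondrial, written mt); dashed lines mark 1.5-fold. Only 4 points, all mitochondrial complex I genes, lie beyond a line, and the nuclear members lie between -0.46 and 0.30.

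Complex I had 35 nuclear members, all detected, with a median of 78.6 RPKM. The highest were accessory subunits: Ndufa3 (301 and 258 RPKM in pools 1 and 2), Ndufa2 at 200 and 187, and Ndufb7 at 176 and 177. The lowest was Ndufb4, an accessory subunit of the membrane arm, at 7.08 and 5.33 RPKM. Subunits of the electron path lay between them, including Ndufv1, which binds the flavin that takes electrons from NADH, at a mean of 78.1 RPKM and the iron-sulfur subunit Ndufs1 at 30.9. The log2 level of the complex's 7 mitochondrial genes was above that of its nuclear genes by 4.36 in pool 1 and 5.01 in pool 2 (medians; 4.69 ± 0.46, SD, n = 2).

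Complex II, succinate dehydrogenase, has no mitochondrial gene, and 3 of its 4 members were at similar levels. Sdha, the flavoprotein that oxidises succinate, was at 196 and 189 RPKM, Sdhb, the iron-sulfur subunit, at 127 and 122, and the membrane anchor Sdhc at 128 and 133. Sdhd, the other membrane anchor, was at 5.70 and 5.92 RPKM. Its low value was alike in both pools, and no copy passing the 98% identity rule was found for it.

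In complex III, 7 of 8 nuclear members were detected, with a median of 136 RPKM. Uqcrh, the hinge protein at the cytochrome c side, led at 390 and 323 RPKM, ahead of the core proteins Uqcrc1 at 169 and 173 and Uqcrc2 at 135 and 144. Uqcrb, a small subunit near the quinone site, was the lowest detected at 44.4 and 44.8. Uqcr11, the smallest subunit, was listed at 0 in both pools; in pools 1 and 2, 3 reads per kilobase of gene length correspond to 0.148 and 0.151 RPKM, and Uqcr11 has a near-identical copy elsewhere. CYTB lay above the nuclear median by 5.25 and 5.34 on the log2 scale.

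Complex IV held 19 nuclear members, 13 of them detected, with a median of 140 RPKM, or 155 for the 11 general subunits alone. Cox4i1, which surrounds the catalytic core, was at 633 and 602 RPKM, Cox6a1 at 394 and 372, and Cox8a at 301 and 293. Cox7a2 and Cox7c were the lowest of the general subunits, at 27.9 and 20.9 and at 12.2 and 9.77 RPKM. The 3 mitochondrial genes were above the nuclear median by 2.45 and 2.28 on the log2 scale, less than in complexes I and III. The order against complex I depended on the summary and the filter. By the mean over members the excess was 4.36 in complex IV and 3.87 in complex I, and with no filter 4.90 and 4.69. All 3 mitochondrial genes have near-identical copies, so no value without copied genes could be given for complex IV.

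Complex V, the ATP synthase, held the highest nuclear member. Atp5b, the catalytic beta subunit, was at 637 and 633 RPKM, Atp5a1, the alpha subunit, at 512 and 516, and Atp5e, the epsilon subunit of the central stalk, at 493 and 443. All 15 members were detected, with a median of 127 RPKM and a lowest value for Atp5g2, a gene for the membrane ring, of 2.06 and 2.57 RPKM. Its 2 mitochondrial genes were above the nuclear median by 2.0 and 2.35 on the log2 scale.

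Across complexes, the mitochondrial median was above the nuclear median by 3.65 in pool 1 and 4.39 in pool 2 on the log2 scale, which is 12.6-fold and 20.9-fold. With members that have a near-identical copy and ATP8 left out, 5 mitochondrial and 66 nuclear members gave 4.49 and 4.99. The 13 mitochondrial genes held 5.35% and 6.39% of the summed RPKM of all listed genes, and the nuclear members 2.23% and 2.15%. The ratio was 2.40 and 2.97 (2.69 ± 0.40, SD, n = 2). These shares are scaled by gene length and are not shares of the reads. The nuclear medians of complexes II to V, 127 to 140 RPKM, lay within the spread of their members.

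**Figure D3:**
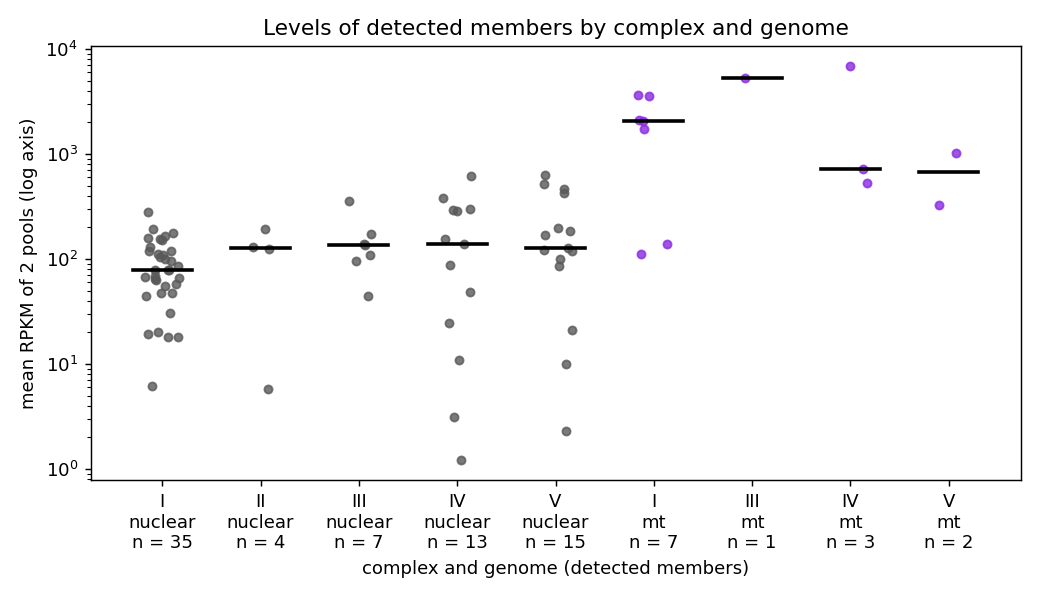
Mean RPKM of 2 pools (log axis) of each detected member by complex, with nuclear genes in grey and mitochondrial genes (mt) in violet; bars are medians. Nuclear medians run from 78.6 RPKM in complex I to 140 RPKM in complex IV, and the mitochondrial genes of complexes IV and V overlap the upper nuclear members more than CYTB does.

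Near-identical copies were also found for 13 of the 73 nuclear subunits over at least 25% of the coding sequence: Atp5f1, Atp5g1, Atp5g2, Atp5h, Atp5l, Cox5b, Cox7c, Ndufa12, Ndufb4, Ndufs3, Ndufs5, Uqcr11 and Uqcrb. Of the 18 nuclear subunits under 50 RPKM, 11 were among them, and of the 55 at 50 RPKM or more, 2 were (Atp5f1 and Atp5h). The 12 detected ones had a median of 20.6 RPKM, beside 123 RPKM for the 60 subunits without such a copy. Some subunits without a copy were low as well, among them Sdhd, Ndufa11 at 17.9, Ndufa8 at 19.4 and Cox7a2 at 24.4 RPKM (means). With a limit of 95% identity, 22 nuclear subunits had a copy, 11 of the 18 under 50 RPKM and 11 of the 55 at or above it, and the medians were 55.9 and 119 RPKM with and without one. The 98% and 25% limits were set after the levels had been seen, and only annotated transcripts were searched, so the association is a description and its part in the levels was not tested.

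**Figure D4:**
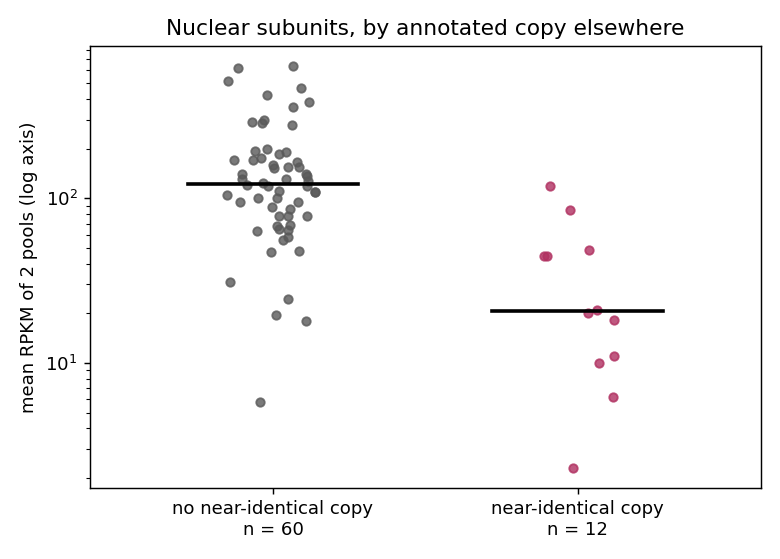
Mean RPKM of 2 pools (log axis) of detected nuclear subunits without and with an annotated near-identical copy at another locus; bars are medians. The medians are 123 and 20.6 RPKM, the ranges overlap, and Uqcr11, which has a copy and is listed at 0, is not drawn.

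Where a subunit has several isoforms, 1 gene usually held nearly all of the summed RPKM. The ubiquitous forms led: Cox4i1 made up 99.98% of Cox4i1 plus Cox4i2, Cox6a1 99.7% of the Cox6a pair, and Cox6b1 98.9% of the Cox6b pair. Cox8b, Cox8c, Cox7b2 and Ndufa4l2 were listed at 0 in both pools, next to Cox8a, Cox7b at 91.7 and 85.3 RPKM, and Ndufa4 at 300.2 and 280.5. Ndufa4 was counted with complex IV, where the protein is found. Cox6a2, the heart and muscle form, was at 1.35 and 1.07 RPKM, just above the detection limit, Cox6b2 at 2.78 and 3.42, and Cox7a1, another muscle form, below the limit at 0.270 and 0.551.

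The families Cox7a and Atp5g differed in make-up. Cox7a2l was classed here as a factor for joining complexes III and IV and not as an ordinary subunit. Whether its protein has that role in the mouse strain used was not tested. Cox7a2l was at 267 and 233 RPKM and held 91.0% of its family. The general form Cox7a2 was far lower, as given above. All 3 Atp5g genes encode the same ring protein of ATP synthase, and Atp5g3 was at 435 and 407 RPKM, or 97.2% of their sum, against 11.6 and 8.42 for Atp5g1. Atp5g1 and Atp5g2 both have near-identical copies elsewhere and Atp5g3 does not.

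The nuclear members lay on 19 chromosomes, with 3 on X. Members that lay within 200 kb of each other included Atp5d and Ndufs7, Ndufs7 and Uqcr11, and Ndufs8 and Ndufv1. A promoter from 250 bases before to 50 bases after the start was on hand for 69 nuclear members, 62 of them subunits (RefSeq, GRCm38.p6). Motifs were searched on both strands.

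Motifs of factors known to act on these genes were present in part of the promoters. The NRF1 motif, GCGCA and GCGC with any 1 base between them, was in 17 of the 62 (27.4%), against 12.9% of 8406 detected genes and 5.19% of all 27025 promoters. The YY1 motif AAGATGGC was in 10 (16.1%), against 5.88% and 3.19%. The ETS motif CCGGAAG was in 16 (25.8%), against 22.7% and 9.93%. CCAAT was in 26 (41.9%, against 43.1% and 41.1%), and the GC box GGGCGG in 24 (38.7%, against 69.7% and 38.2%). The ETS and YY1 motifs can share 3 bases, and did so in 0 of the 62. A match is a description of the letters and not a sign of binding.

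Promoters of 3 highly expressed members carry these motifs, each in capitals as read on the gene's strand. Atp5g3 (chr2:73911277-73911576, minus strand) has an NRF1 motif in reverse, Atp5e (chr2:174464052-174464351, minus strand) an ETS motif in reverse, and Ndufa3 (chr7:3617123-3617422, plus strand) a YY1 motif.
Atp5g3: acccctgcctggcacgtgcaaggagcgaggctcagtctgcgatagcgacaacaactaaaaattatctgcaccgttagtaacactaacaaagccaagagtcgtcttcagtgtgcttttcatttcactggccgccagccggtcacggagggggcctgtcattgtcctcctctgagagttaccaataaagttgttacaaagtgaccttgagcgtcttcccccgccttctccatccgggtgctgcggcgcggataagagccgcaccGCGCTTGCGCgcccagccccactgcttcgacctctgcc
Atp5e: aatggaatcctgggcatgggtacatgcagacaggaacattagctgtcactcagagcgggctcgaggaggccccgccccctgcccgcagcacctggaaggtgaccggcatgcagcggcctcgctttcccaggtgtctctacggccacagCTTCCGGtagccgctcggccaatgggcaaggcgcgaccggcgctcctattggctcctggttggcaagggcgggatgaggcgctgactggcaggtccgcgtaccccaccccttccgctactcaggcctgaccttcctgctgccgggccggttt
Ndufa3: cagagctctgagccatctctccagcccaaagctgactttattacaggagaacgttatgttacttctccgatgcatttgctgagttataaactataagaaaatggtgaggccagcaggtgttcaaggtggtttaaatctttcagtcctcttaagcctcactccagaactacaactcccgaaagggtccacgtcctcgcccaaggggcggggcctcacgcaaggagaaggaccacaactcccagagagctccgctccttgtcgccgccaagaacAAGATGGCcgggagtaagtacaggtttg

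Lists of other pathway genes, chosen with earlier results of these data known, were read beside the members. Of 7 genes that the symbol rule left out, 6 were detected, among them Cyc1, the cytochrome of complex III, at 120 and 107 RPKM. Cycs, which encodes cytochrome c, was at 0.760 and 0.758 RPKM, and Ndufab1, the acyl carrier of complex I, at 4.45 and 4.10; both have near-identical copies over their coding sequence. Of 45 assembly factors (Coa3 stood in both lists), 43 were detected with a median of 18.3 RPKM. None was 1.5-fold apart, beside 8.45% of all detected genes and 4.8% of those with a mean of 10 RPKM or more. Higher in pool 2 were 25 and higher in pool 1 were 18, where 57.3% of all detected genes were higher in pool 2. Sco2 and Pet117, both needed to build complex IV, were listed at 0. Copies were not searched for either gene, and why they were listed at 0 was not tested.

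Genes that act on the mitochondrial genome itself were measured as well. Of the 22 matched factors for mitochondrial transcription and RNA, all were detected and 14 were higher in pool 2 (57.3% of all detected genes were), with a median log2 difference of 0.23 beside 0.04 for all detected genes. Tfam, which packages the genome and starts transcription, was at 20 and 28.5 RPKM, and the RNA polymerase Polrmt at 11.7 and 10.9. Mterf2 (listed as Mterfd3), of the termination factor family, was the only one at least 1.5-fold apart, at 3.06 and 4.73 RPKM, where 8.45% of all detected genes were. Of 10 nuclear regulators, 9 were detected and 8 were higher in pool 2, with a median of 0.17, beside 57.3% and 0.04 for all detected genes. Nrf1 was at 13.9 and 15.2 RPKM, and the coactivator Ppargc1a was listed at 0. Its relative Ppargc1b, at the low levels of 2.76 and 1.5 RPKM, was the only regulator 1.5-fold apart, where 8.45% of all detected genes were.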

How the data were processed

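The authors deposited 1 table per library, with RPKM per gene; the unit was taken from the values, since all 13 mitochondrial genes gave whole reads (tolerance 0.02) at their annotated lengths. Per the submitters' processing notes, CASAVA 1.8.2, featureCounts and edgeR (3.8.2 and 3.22.0) and build mm10 were used, with no role given; what aligned the reads, on which annotation and strand setting, and how reads with several origins were treated is not given in the sources used here. Library totals are the smallest that give whole reads. The 80 nuclear members above 0 also gave whole reads at some length, and their read numbers are lower bounds.

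Members and lists were chosen with earlier results of these data known. All 98 were matched to the reference by gene ID. Levels are log2(RPKM + 0.1), differences are pool 2 minus pool 1 on that scale, and a fold of 1.5 was used to call a gene apart. Folds printed beside the 1.5-fold counts are ratios of RPKM, with 95% intervals from an exact binomial (Clopper-Pearson) split of the reads. The interval method was tested on simulated data, where 91%, 94% and 99% of nominal 95% intervals held true folds of 0.5, 1 and 2. The pools are separate pools of mice, so the spread between them includes biological and technical parts.

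Named members are the 13 mitochondrial genes, in each complex the 3 highest and the lowest nuclear genes, all complex II genes, isoforms, and members 1.5-fold apart; others were named after their values were seen. Copies were found with BLAST 2.17.0 in GENCODE transcripts; the share of the coding sequence replaced that of the whole transcript after the results were seen (Atp5g1: 100% against 11.1%). Python 3.11.15, pandas 2.3.3, scipy 1.17.1 and matplotlib 3.10.9 were used. Alternatives were other pseudocounts, filters, folds, scalings and summaries, each pool alone, and leaving out copied genes. Fastkd4 and Kiaa0391 were not matched. Marker lists beyond those summed at the opening came to 4.76 and 9.13 RPKM (NK and ILC1), 110 and 103 (mast cell and basophil) and 68.2 and 2.82 (stromal) in pools 1 and 2.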

Additional observations from a re-analysis of the deposited data

How the results depend on the processing

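Of the values recomputed under alternatives, 141 stayed within the spread between the pools or within 1.5 times the count, 28 did not, and 1 changed sign: the log2 difference of the summed ILC2 markers (pool 2 minus pool 1) was -0.17 with all markers and 0.10 without Id2, left out after seeing the data. Nuclear subunits with a near-identical copy numbered 13 at 98% identity and 22 at 95%, also chosen after seeing the data. The mitochondrial excess (log2) was 4.86 overall without copied genes and ATP8, an alternative added after seeing the data. By the mean over members it was 3.87 in complex I, 5.39 in complex III and 4.36 in complex IV. With no filter it was 5.45 in complex III and 4.90 in complex IV, and in complex IV it was 2.23 with a filter of 5 RPKM or with subunits only. For these the cause was not tested, beyond fewer or more members entering.

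The log2 level of nuclear complex I, where the pools differ little, was 6.29 and 6.31 with pseudocounts of 0.01 and 1, from 6.30 to 6.30 with each pool alone, 6.43 without copied genes, and 6.30 with complexes set by symbol prefix. That of complex II was 6.99 and 7.00 with these pseudocounts, and that of complex III 6.93 with no filter. That of complex IV was 7.27 with a filter of 5 RPKM, with subunits only or without copied genes, and 4.6 with no filter. That of complex V was 7.21 with the filter, 7.59 without copied genes and 6.90 by prefix. Mitochondrial members higher in pool 2 fell from 4 to 0 at a fold of 2. Nuclear members rose from 0 to 1 higher in pool 2 with no filter (Cox7a1, 0.270 and 0.551 RPKM), and from 0 to 4 higher in pool 1 at the lower of the other folds tried. No paired analysis was possible because the study has only 1 group. With n = 2 pools and lists of copies that cover annotated transcripts only, small differences and unannotated copies were not detectable.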
